A study of Danio rerio with 9 samples.

Results

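Proteasome genes were followed in Müller glia, the radial glial cells of the retina, of adult zebrafish before and after a light lesion. The genes were those whose symbol in the authors' annotation begins with psma to psmg followed by a digit, and 44 of the 33737 genes in the count table met this rule. All 44 had enough counts to be tested, among 19875 genes tested in all. By role they comprised 8 genes of the alpha ring, 7 of the constitutive beta ring and 1 immune-type beta gene, psmb12. A further 7 encode ATPases and 10 encode other subunits of the regulatory particle, and 4 encode activators, 1 an inhibitor and 5 assembly chaperones. The remaining gene, psmc3ip, met the rule by its symbol, but it encodes a partner of meiotic recombination enzymes and not a proteasome subunit, and it is described apart. Genes listed as PSMA1, PSMD2, PSMD4, PSMD7 and PSMG3 in the gene name table have identifiers absent from the count table and were not analysed here. Genes listed as PSMA2 and PSMG4 were in the count table but outside the rule.

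The proteasome degrades proteins that carry ubiquitin chains. Its core particle is a barrel of stacked rings, in which alpha subunits gate the entrance and beta subunits hold the proteolytic sites. The regulatory particle (19S) caps the barrel: its ATPases unfold the substrate and thread it into the core, and its other subunits bind and remove ubiquitin. Immune-type beta subunits can replace the constitutive catalytic ones and, in mammals, favour peptides for presentation by major histocompatibility complex (MHC) class I. Müller glia of the zebrafish retina can leave their resting state after photoreceptor loss and divide to replace neurons.

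Cells had been sorted by green fluorescence from dissociated neural retinas of the line Tg(gfap:EGFP)mi2002, aged 8 to 11 months, in which the glial gfap promoter drives the fluorescent protein in all 3 groups. The control group was unlesioned and is called 0 hours post lesion (hpl). The other groups were taken 8 and 16 hpl, after 30 min of light above 120000 lux, which damages photoreceptors. Each group had 3 RNA sequencing libraries, and no unlesioned group was taken with the lesioned fish, so the lesion, the light and the collection hour cannot be told apart. The labels do not say whether libraries came from separate fish or pools, and the p-values therefore measure only the spread between these libraries, which may be technical.

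Total expected counts lay between 11714633 (16 hpl replicate 3) and 26608088 per library. The 10 Müller glia markers summed to 1059 to 2041.5 CPM (counts scaled to a common library size and composition). Among them rlbp1a stood at 134 to 436 CPM and gfap at 60.2 to 168 CPM. The 16 rod markers summed to 46918 to 128830 CPM, so RNA of other retinal cells was present in every library. The 8 hpl replicates 1 and 3 and the 16 hpl replicate 2 stand apart from the other libraries in earlier results of these data. In bulk RNA, a lower level in each cell and a smaller share of cells that express a gene cannot be told apart.

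Levels per transcript length were compared as FPKM, the authors' values per kilobase of transcript, scaled for depth. At 0 hpl the beta ring was the most evenly expressed class, from 121 ± 17.0 FPKM for psmb2 to 202 ± 29.9 FPKM for psmb4 (SD, n = 3). psmb4, a structural beta subunit without a proteolytic site, was also the highest of all 44 genes. The alpha ring spanned 2.94 FPKM for psma6l to 175 ± 20.5 FPKM for psma3, and without psma6l its lowest member was psma6b at 70.0 ± 12.7 FPKM. Regulatory ATPases spanned 50.4 FPKM for psmc1a to 172 FPKM for psmc5, and the other regulatory subunits 22 FPKM for psmd11b to 153 FPKM for psmd6. Neighbours in this order mostly lay within their spread: psma3, psmc5 and psmb3 stood at 175, 172 and 171 FPKM with SDs of 20.5 to 30.0 FPKM.

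Most regulators lay below most subunits that they act on. Among activators, psme3 stood at 43.3 ± 1.69 FPKM and psme4b at 30.1 ± 10.1 FPKM, against 4.21 ± 1.17 FPKM for psme2 and 2.90 ± 0.347 FPKM for psme1. The inhibitor gene psmf1 stood at 24.8 ± 1.60 FPKM and the assembly chaperones at 14.6 FPKM (psmd10) to 36.3 FPKM (psmg2). The lowest of the proteasome genes was psmb12, at 1.79 ± 0.715 FPKM, and psmc3ip stood at 0.981 ± 0.415 FPKM.

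**Figure D1:**
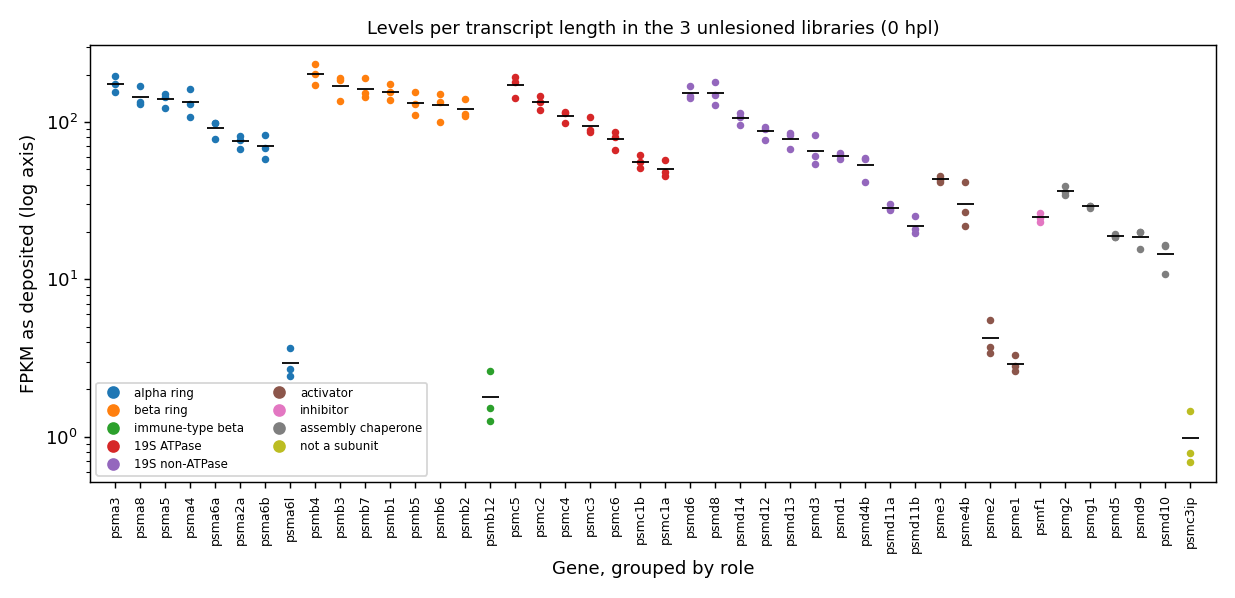
FPKM of the 44 genes (log axis) in the 3 unlesioned libraries, grouped by role, with points for libraries and lines for means. The 7 beta ring genes lie together between 121 and 202 FPKM, while psma6l, psmb12, psme1, psme2 and psmc3ip lie below 5 FPKM.

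At 8 hpl the subunits of the core and regulatory particles were lower than at 0 hpl by small amounts, without any of them passing the test alone. Of the 32 genes of these classes, 31 had a negative log2 fold change, with a median of −0.37 and a range of −0.54 to −0.03, and psma6l was the exception at 0.47. Over all 44 genes the median was −0.28, with 36 lower and 8 higher, against 0.02 over all genes tested and −0.07 over the 5378 genes with a mean of at least 30 CPM. With a single library left out, the median over the 44 genes lay between −0.37 (without 0 hpl replicate 2) and −0.20 (without 0 hpl replicate 3). In edgeR's quasi-likelihood test, with p adjusted over all genes by Benjamini and Hochberg's method, 0 of 44 genes passed in either direction, where 1.9% of all genes passed as higher and 0.931% as lower at an adjusted p below 0.05. The smallest adjusted p among the 44 was 0.121, for psmc4. At an unadjusted p below 0.05, 11 of 44 were lower and 2 higher, beside 6.9% and 9.3% of all genes. DESeq2, run as an alternative, called 2 of 44, psmc4 and psme4b, where it called 7.18% of all genes.

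In 20 of the 44 genes (45.5%), every 8 hpl library lay below every 0 hpl library, a separation that 12.9% of all genes showed. The reverse separation held for 1 gene, psmc3ip, and for 13.9% of all genes. Both shares are over the 19875 genes tested, many of them low, and none was taken over the 5378 genes with a mean of at least 30 CPM. The 20 genes were 3 of 8 in the alpha ring, 4 of 7 in the beta ring, 6 of 7 ATPases and 7 of 10 other regulatory subunits, and 0 of the 11 activators, inhibitor, chaperones and psmb12. Without the 3 libraries that stand apart, which leaves a single 8 hpl library, the median over the 44 genes was −0.37 and the count was 35, but 32.7% of all genes then separated in this way.

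**Figure D2:**
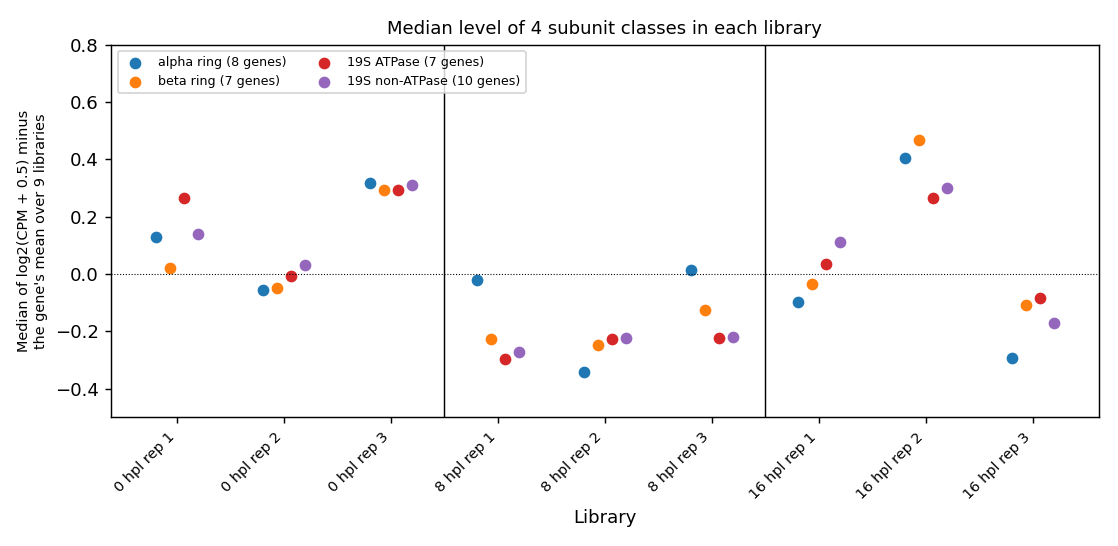
Median over the genes of each subunit class of the log2 level in a library minus the gene's mean over 9 libraries. The ATPases and other regulatory subunits lie between −0.30 and −0.22 in all 3 libraries at 8 hpl, while their 16 hpl replicates are spread from −0.17 to 0.30. The beta ring lies between −0.25 and −0.12 at 8 hpl. The alpha ring, at −0.02, −0.34 and 0.02 in 8 hpl replicates 1, 2 and 3, overlaps the unlesioned libraries (−0.05 in 0 hpl replicate 2). At 16 hpl the alpha ring reaches down to −0.29 and the beta ring up to 0.47.

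The summed levels of the 31 subunits show where the libraries lie. They held 0.331, 0.294 and 0.366% of the scaled counts (CPM) in 0 hpl replicates 1, 2 and 3, and 0.256, 0.250 and 0.270% at 8 hpl. The scaling includes library composition, so these are not shares of raw counts. At 16 hpl the shares were 0.306, 0.379 and 0.264%. Every 8 hpl share was thus below every 0 hpl share, and the 16 hpl replicates were so far apart that replicate 2 exceeded every unlesioned library and replicate 3 lay within the 8 hpl range. The alpha ring taken alone overlapped: its 8 genes summed to 590 CPM in 8 hpl replicate 3 and 565 CPM in 0 hpl replicate 2. Cone markers moved between the same groups: in edgeR 5 of 13 fell at 8 hpl and 0 rose, beside 0.931% and 1.9% of all genes. Their summed level went from 10621 to 13751 CPM at 0 hpl to 3369 to 6435 CPM at 8 hpl and 4428 to 8477 CPM at 16 hpl. Of the 13 markers, 0 were at 0 in every library. In 16 hpl replicate 2, where the subunit share was highest, summed bipolar cell markers stood at 6678 CPM against 2185 to 2899.8 CPM in the other 8 libraries, and summed rod markers were at their lowest, 46918 CPM against 73210 to 128830 CPM. By contrast, 0 hpl replicate 3, with the next highest share, had the highest rod and cone sums, 128830 and 13751 CPM. Its summed Müller glia markers were the lowest of all libraries, at 1059 CPM. None of the 6 bipolar and 16 rod genes was called in edgeR, and 0 of them were at 0 in every library. The part of cone, rod and bipolar RNA in the subunit levels was not tested.

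Among alpha ring genes, psma6a had the lowest log2 fold change at 8 hpl against 0 hpl. It stood at 70.4, 55.9 and 69.4 CPM at 0 hpl (replicates 1, 2 and 3, the order kept in all values below), 45.8, 50.8 and 41.6 CPM at 8 hpl and 61.4, 58.7 and 42.1 CPM at 16 hpl. All 8 hpl libraries lay below all unlesioned ones, with a log2 fold change of −0.50 ± 0.19 (SE; edgeR adjusted p = 0.223), and the 16 hpl libraries overlapped both groups. Its close relative psma6l, a low gene, went the other way with 2.98, 2.73 and 4.01 CPM at 0 hpl, 3.94, 5.15 and 4.39 CPM at 8 hpl and 2.81, 2.62 and 4.72 CPM at 16 hpl. These groups overlapped (0.47 ± 0.32, edgeR adjusted p = 0.548). The counts of psma6l were fractional in all 9 libraries, so some reads were shared with other genes by the authors' counting. The fractions were small, as in 52.01 counts in 0 hpl replicate 1 and 55.22 in 16 hpl replicate 2, and the number of reads shared is not known. psma5 had the highest fold change of the class at 16 hpl against 0 hpl, yet its 122, 101 and 127 CPM at 0 hpl overlapped its 122, 161 and 99.3 CPM at 16 hpl, as did its 118, 91.1 and 133 CPM at 8 hpl. PSMA2, outside the rule, stood at 58.2, 49.6 and 54.3 CPM at 0 hpl and 56.9, 36.2 and 49.2 CPM at 8 hpl. These 2 groups overlapped (−0.19, edgeR adjusted p = 0.769).

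The catalytic beta subunits had log2 fold changes nearer 0 at 8 hpl against 0 hpl than the median of the regulatory ATPases, a difference that was not tested. psmb5, which carries the chymotrypsin-like site, stood at 131, 113 and 154 CPM at 0 hpl, 112, 118 and 122 CPM at 8 hpl and 127, 192 and 117 CPM at 16 hpl. psmb6, with the caspase-like site, stood at 83.7, 72.0 and 110 CPM, then 73.3, 73.5 and 78.9 CPM, then 77.1, 103 and 79.6 CPM. psmb7, with the trypsin-like site, stood at 103, 99.5 and 126 CPM, then 78.8, 93.2 and 93.7 CPM, then 101, 142 and 101 CPM. Their 8 hpl libraries were closely grouped, those of psmb5 and psmb6 overlapped the unlesioned ones, those of psmb7 lay below all of them, and 16 hpl replicate 2 was above the other 16 hpl libraries for each. Log2 fold changes at 8 hpl were −0.18 ± 0.22, −0.24 ± 0.20 and −0.31 ± 0.19, with adjusted p of 0.770, 0.635 and 0.502 in edgeR. Without 0 hpl replicate 3 they were −0.06, −0.05 and −0.20, and without 0 hpl replicate 2 −0.27, −0.35 and −0.36. The structural subunit psmb4 had the lowest log2 fold change of the class (−0.45 ± 0.21, edgeR adjusted p = 0.327). It went from 147, 126 and 166 CPM to 107, 106 and 108 CPM and, at 16 hpl, 123, 174 and 106 CPM.

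The regulatory ATPases, the motor of the complex, were lower at 8 hpl in 7 of 7 genes by fold change. psmc4 stood at 174, 150 and 174 CPM at 0 hpl, 112, 113 and 118 CPM at 8 hpl and 149, 171 and 136 CPM at 16 hpl. The 8 hpl libraries were the lowest 3 of the 9, and the 16 hpl libraries overlapped the unlesioned ones. The log2 fold change at 8 hpl was −0.54 ± 0.16 in edgeR (adjusted p = 0.121), and this gene passed without 16 hpl replicate 2 (−0.54, adjusted p = 0.0394) and in DESeq2 (adjusted p = 0.0313). The 7 ATPases ranged from −0.54 to −0.18 at 8 hpl against 0 hpl, with a median of −0.43, and 5 of them had an unadjusted p below 0.05: psmc2, psmc3, psmc4, psmc5 and psmc6.

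The duplicated genes psmc1a and psmc1b differed least among the ATPases at 8 hpl against 0 hpl. psmc1a stood at 102, 81.2 and 83.6 CPM, then 75.4, 72.5 and 79.4 CPM, then 85.6, 127 and 69.7 CPM, and psmc1b at 64.4, 59.3 and 71.1 CPM, then 51.9, 59.0 and 60.8 CPM, then 62.2, 80.8 and 59.6 CPM. The 8 hpl libraries lay below the unlesioned ones for psmc1a and overlapped them for psmc1b. Counts of both were fractional in 3 libraries while their sum was whole in 9 of 9 (within 0.005), so reads were divided between these copies. psmc6 had the lowest log2 fold change of the class at 16 hpl against 0 hpl. It stood at 96.7, 81.4 and 103 CPM at 0 hpl, 63.8, 68.7 and 72.5 CPM at 8 hpl and 81.7, 95.2 and 64.5 CPM at 16 hpl. Its 16 hpl libraries overlapped both other groups.

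**Figure D3:**
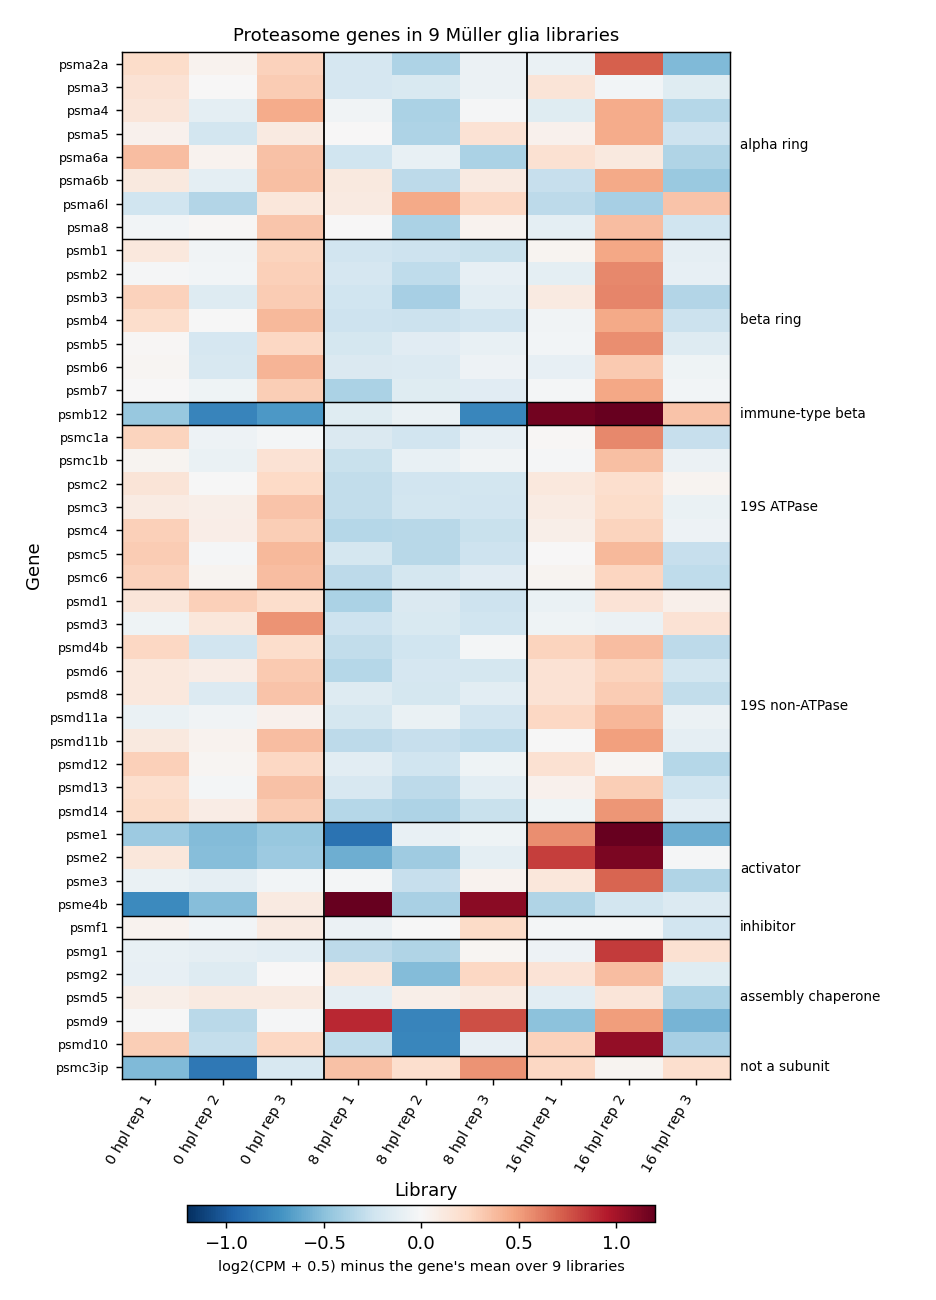
Log2 level of each of the 44 genes (rows, by role) in each of the 9 libraries (columns), as the difference from the gene's mean, with colours capped at 1.2 in either direction. Most rows of regulatory subunits are blue in the 8 hpl columns and red in 16 hpl replicate 2, while psme4b and psmd9 are reddest in 8 hpl replicates 1 and 3.

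Among the other regulatory subunits, psmd14, which cuts ubiquitin chains from substrates, had the lowest log2 fold change at 8 hpl against 0 hpl. It stood at 94.0, 85.2 and 99.0 CPM at 0 hpl, 62.9, 61.7 and 66.2 CPM at 8 hpl and 76.8, 115 and 73.3 CPM at 16 hpl. Here, too, the 8 hpl libraries were the lowest 3 of the 9, and the 16 hpl libraries lay on both sides of the unlesioned ones. The log2 fold change was −0.54 ± 0.20 (edgeR adjusted p = 0.196), and without 16 hpl replicate 2 it passed with −0.54 (adjusted p = 0.0336). psmd1, a large scaffold subunit, had −0.48 ± 0.16 (adjusted p = 0.148), from 149 ± 7.25 to 107 ± 7.70 CPM. The class ranged from −0.54 to −0.15, with a median of −0.41, and its 5 genes with an unadjusted p below 0.05 were psmd1, psmd3, psmd6, psmd11b and psmd14.

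The highest log2 fold change of this class against 0 hpl, at both times, was that of psmd11a, a lid subunit with a second copy, psmd11b. psmd11a stood at 41.6, 42.7 and 45.5 CPM at 0 hpl, 37.8, 41.6 and 37.4 CPM at 8 hpl and 52.3, 58.1 and 41.8 CPM at 16 hpl. The groups overlapped against 0 hpl (0.23 ± 0.17 at 16 hpl, adjusted p = 0.587), and every 16 hpl library exceeded every 8 hpl one. psmd12, another lid subunit, had the lowest log2 fold change of the class at 16 hpl against 0 hpl. It stood at 155, 130 and 151 CPM, then 117, 108 and 123 CPM, then 145, 130 and 101 CPM, so the 8 hpl libraries lay below the unlesioned ones and the 16 hpl libraries overlapped both.

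**Figure D4:**
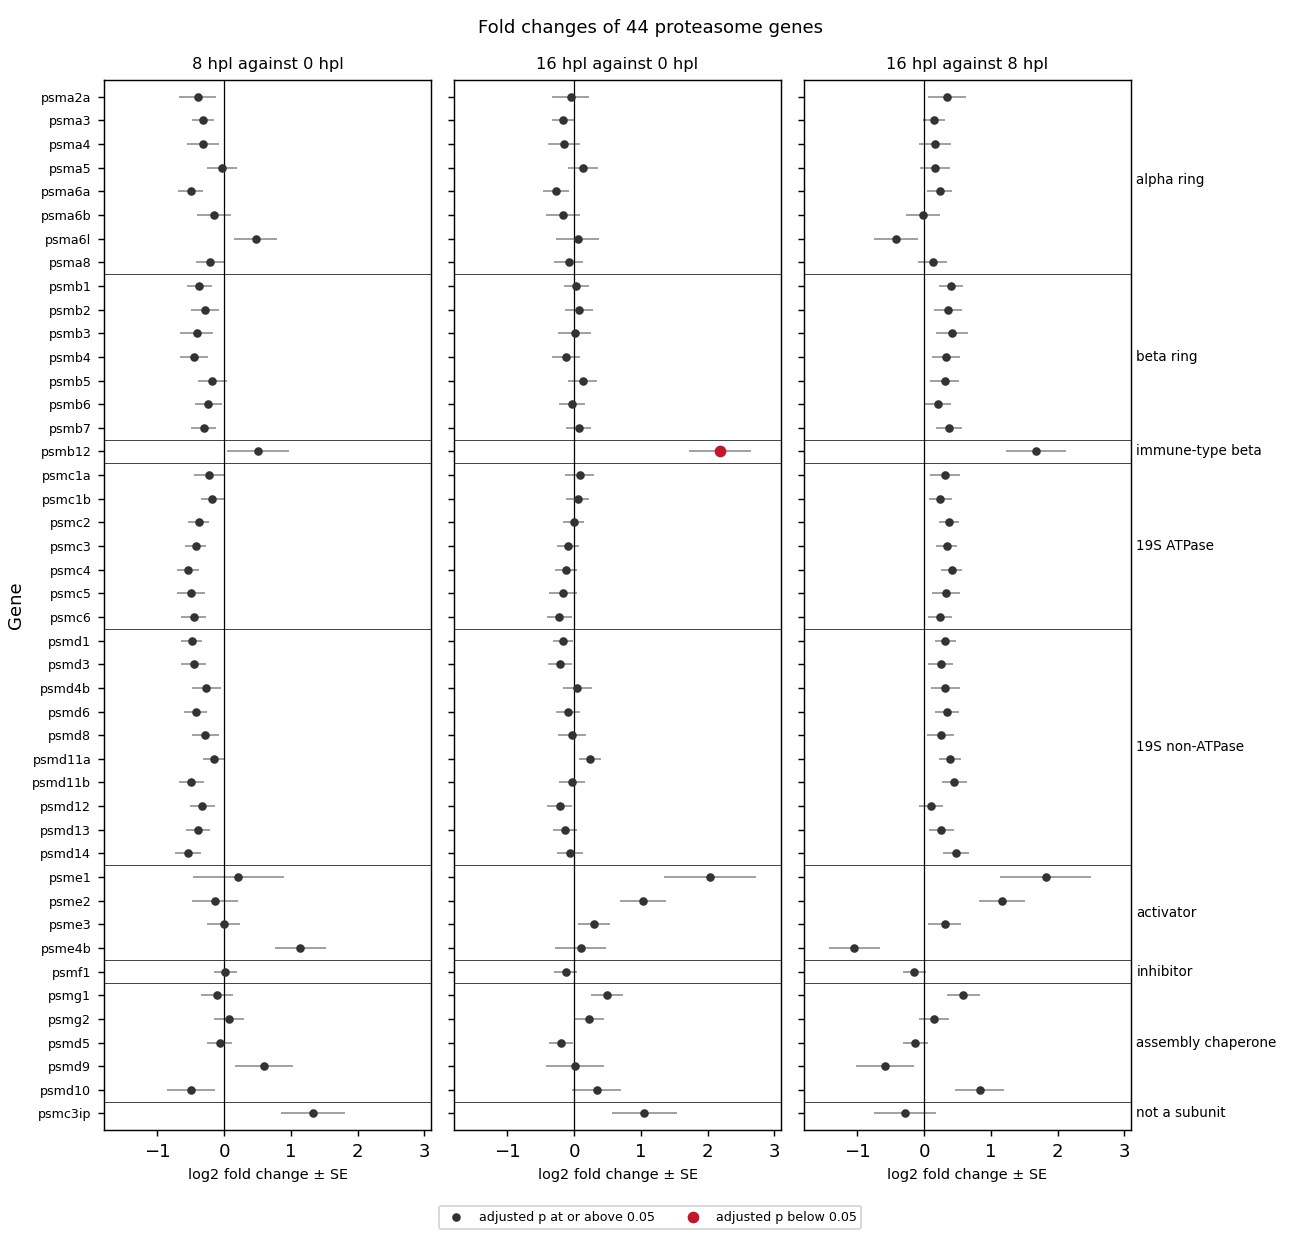
Log2 fold changes with SE of the 44 genes in the 3 comparisons, grouped by role. At 8 hpl against 0 hpl 31 of the 32 core and regulatory subunits lie left of 0, at 16 hpl against 0 hpl psmb12 (red) passed the test at 2.18, and 30 of those 31 subunits lie right of 0 at 16 hpl against 8 hpl.

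In the authors' deposited table, 13 of the 44 genes were lower at 8 hpl at an adjusted p below 0.05, and 3 were higher, beside 18% and 19.7% of the genes in that table. The 13 were psma6a, psmb1, psmb4, psmc2, psmc3, psmc4, psmc5, psmc6, psmd1, psmd3, psmd6, psmd11b and psmd14. The authors' deposited table gave psmc4 −0.51 on the log2 scale (adjusted p = 0.00187), and psmd14 was listed there at −0.50 (adjusted p = 0.00271). The sources used here do not give the authors' model, and the fit here gave −0.54 for both genes. The genes listed higher in the authors' deposited table were psme4b (1.62), psmd9 (0.97) and psmc3ip (1.60).

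At 16 hpl the median fold change of the subunits against 0 hpl was near 0, though the 3 libraries lay far apart, and 1 gene passed in edgeR. Over the 44 genes the median log2 fold change at 16 hpl against 0 hpl was −0.02, with 23 lower and 21 higher, and over the 31 subunits it was −0.07, against 0.03 over all genes tested. Without 16 hpl replicate 2 the median over the 44 genes was −0.17, and without the 3 libraries that stand apart it was −0.16. In edgeR 1 of 44 genes rose and 0 fell, where 1.45% of all genes passed as higher and 0.639% as lower. At an unadjusted p below 0.05 the counts were 3 higher (8.71% of all genes) and 0 lower (6.07%). Every 16 hpl library exceeded every unlesioned one for 3 genes, psmb12, psmg1 and psmc3ip, and lay below for 0, beside 10.7% and 10.4% of all genes. DESeq2 called 2 of 44, psmb12 and psme1, where it called 5.61% of all genes. In the authors' deposited table, 3 genes were higher at 16 hpl, psmb12 (2.13, adjusted p = 0.00474), psme2 (1.00, adjusted p = 0.0362) and psmc3ip, and 0 lower, beside 6.86% and 6.3% of its genes.

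The gene that rose was psmb12 (ENSDARG00000031885), a catalytic-type beta gene listed as psmb11 in the authors' table and as psmb12 in the gene name and RefSeq tables. Its counts were 18, 16 and 15 at 0 hpl, 37, 37 and 16 at 8 hpl and 97, 109 and 27 at 16 hpl. In CPM these were 1.03, 0.715 and 0.802, then 1.4, 1.49 and 0.716, then 4.2, 5.16 and 2.16. All 16 hpl libraries lay above the other 6, replicate 3 the least, and the 8 hpl libraries overlapped the unlesioned ones. The log2 fold change at 16 hpl against 0 hpl was 2.18 ± 0.46 (edgeR adjusted p = 0.0428), or 4.54-fold, from 0.849 ± 0.163 to 3.84 ± 1.53 CPM (SD, n = 3).

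Against 8 hpl psmb12 was higher by 1.68 ± 0.45 at 16 hpl without passing (adjusted p = 0.156), and at 8 hpl against 0 hpl it had 0.51 ± 0.46 (adjusted p = 0.670). In the test over the 3 time points it was the 1 gene of 44 called (adjusted p = 0.0423), where 3.23% of all genes were called. The call at 16 hpl ended in limma on the authors' FPKM, as log2(FPKM + 1) (1.35, adjusted p = 0.0657). With edgeR it ended without any single 0 hpl library (adjusted p up to 0.179), without 8 hpl replicate 1 or 3 (0.0777 and 0.0506) or without 16 hpl replicate 1 or 2 (0.108 and 0.0841), while the log2 fold change stayed between 1.91 and 2.46. It held without 8 hpl replicate 2 (adjusted p = 0.0370) or 16 hpl replicate 3 (0.0300), with the 3 libraries that stand apart all left out (1.92, adjusted p = 0.0319), and in DESeq2 (2.19, adjusted p = 0.00113).

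Other immune-type beta genes lay outside the naming rule and are given for comparison. In the gene order of the RefSeq assembly GRCz12tu, psmb13a, psmb8a, psmb12 and psmb9a follow each other by start, and psmb8a spans psmb12 and psmb9a. The counts of psmb12 were whole in all 9 libraries. The gene listed as PSMB9 had 5, 15 and 6 counts at 0 hpl, 11, 19 and 13 at 8 hpl and 18, 36 and 13 at 16 hpl, or 0.286, 0.670 and 0.321 CPM, then 0.417, 0.764 and 0.582 CPM, then 0.779, 1.71 and 1.04 CPM. In CPM all its 16 hpl libraries lay above the other 6, as for psmb12, without passing the test (log2 fold change 1.44 at 16 hpl against 0 hpl, edgeR adjusted p = 0.304). PSMB8 had 0, 5 and 5 counts, then 11.74, 6 and 0, then 7.58, 49.1 and 9, and was below the filter for testing, although its 16 hpl libraries (0.328, 2.32 and 0.721 CPM) also lay above its unlesioned ones (0, 0.223 and 0.267 CPM). psmb13a had at most 6 counts in any library, and psmb11b 0 in all 9.

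PSMB10, for the subunit that replaces psmb7 in mammals, was the most abundant of these outside genes. It stood at 11.0, 12.5 and 10.7 CPM at 0 hpl, 11.8, 7.48 and 11.1 CPM at 8 hpl and 8.52, 18.6 and 12.6 CPM at 16 hpl. The groups overlapped (0.21 at 16 hpl, edgeR adjusted p = 0.820). PSMB9 and PSMB8 thus shared with psmb12 the separation of 16 hpl from 0 hpl libraries in CPM at few counts, and the difference between these genes was not itself tested.

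The activators, which open the core without ubiquitin recognition, did not share a pattern. psme1 and psme2 form a joint ring that interferon gamma induces in mammals. psme1 stood at 2.46, 2.28 and 2.41 CPM at 0 hpl, 1.67, 3.26 and 3.36 CPM at 8 hpl and 5.36, 21.6 and 2.16 CPM at 16 hpl. psme2 stood at 7.39, 4.55 and 4.82 CPM, then 4.30, 4.84 and 6.11 CPM, then 12.2, 15.2 and 6.64 CPM. For both, 16 hpl replicates 1 and 2 were the highest of the 9 libraries, and replicate 3 fell within the unlesioned range for psme2 and below it for psme1.

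Log2 fold changes at 16 hpl against 0 hpl were 2.03 ± 0.69 for psme1 (edgeR adjusted p = 0.189) and 1.03 ± 0.34 for psme2 (adjusted p = 0.176). The value of psme1 rested on 16 hpl replicate 2, without which it was 0.68 (adjusted p = 0.511), and DESeq2 called it (adjusted p = 0.0380). psme2 had 1.17 ± 0.34 at 16 hpl against 8 hpl (adjusted p = 0.193), with every 16 hpl library above every 8 hpl one, and DESeq2 called that difference (adjusted p = 0.0494). psme3, for a nuclear activator, stood at 54.4, 53.2 and 56.0 CPM, then 56.6, 47.1 and 59.0 CPM, then 63.0, 93.5 and 44.6 CPM. Its 16 hpl libraries lay on both sides of the others (0.30 ± 0.24, adjusted p = 0.645), and without 16 hpl replicate 2 the value was −0.02.

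psme4b, for a large activator found in nuclei, followed the libraries more than the groups. It stood at 91.7, 109 and 168 CPM at 0 hpl, 364, 119 and 331 CPM at 8 hpl and 122, 134 and 139 CPM at 16 hpl. Replicates 1 and 3 at 8 hpl were high and replicate 2 lay among the unlesioned libraries. The log2 fold change at 8 hpl was 1.14 ± 0.38 (edgeR adjusted p = 0.160), and at 16 hpl against 8 hpl it was −1.05 ± 0.38 (adjusted p = 0.266). Without 8 hpl replicate 2 both passed, with 1.5 (adjusted p = 0.00922) and −1.4 (adjusted p = 0.0199), and DESeq2 called the first of them (adjusted p = 0.0435). Without the 3 libraries that stand apart the values were −0.05 and 0.13.

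Clock genes, which cycle over the day, parted the 8 hpl libraries in the same way. The light-induced repressor per2 stood at 806, 278 and 831 CPM at 8 hpl. Replicate 2 was lowest, yet above the 11.5 to 42.6 CPM of per2 at 0 hpl. In contrast, per1b was highest in replicate 2, with 181, 1309 and 195 CPM at 8 hpl and 664 to 1137 CPM at 0 hpl. At 16 hpl the likeness did not hold. There per1b stood at 1214, 369 and 1490 CPM and per2 at 81.7, 244 and 108 CPM, which set replicate 2 apart. The 16 hpl values of psme4b, 122, 134 and 139 CPM, did not part in this way. The part of the hour of collection in psme4b was not tested. The paralog of psme4b listed as PSME4 had the same order at 8 hpl, with 4.36, 0.304 and 2.16 CPM at 0 hpl, 8.28, 1.37 and 5.73 CPM at 8 hpl and 4.29, 2.37 and 4.80 CPM at 16 hpl. Its groups overlapped, and it was not called (edgeR adjusted p = 0.539 at 8 hpl).

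**Figure D5:**
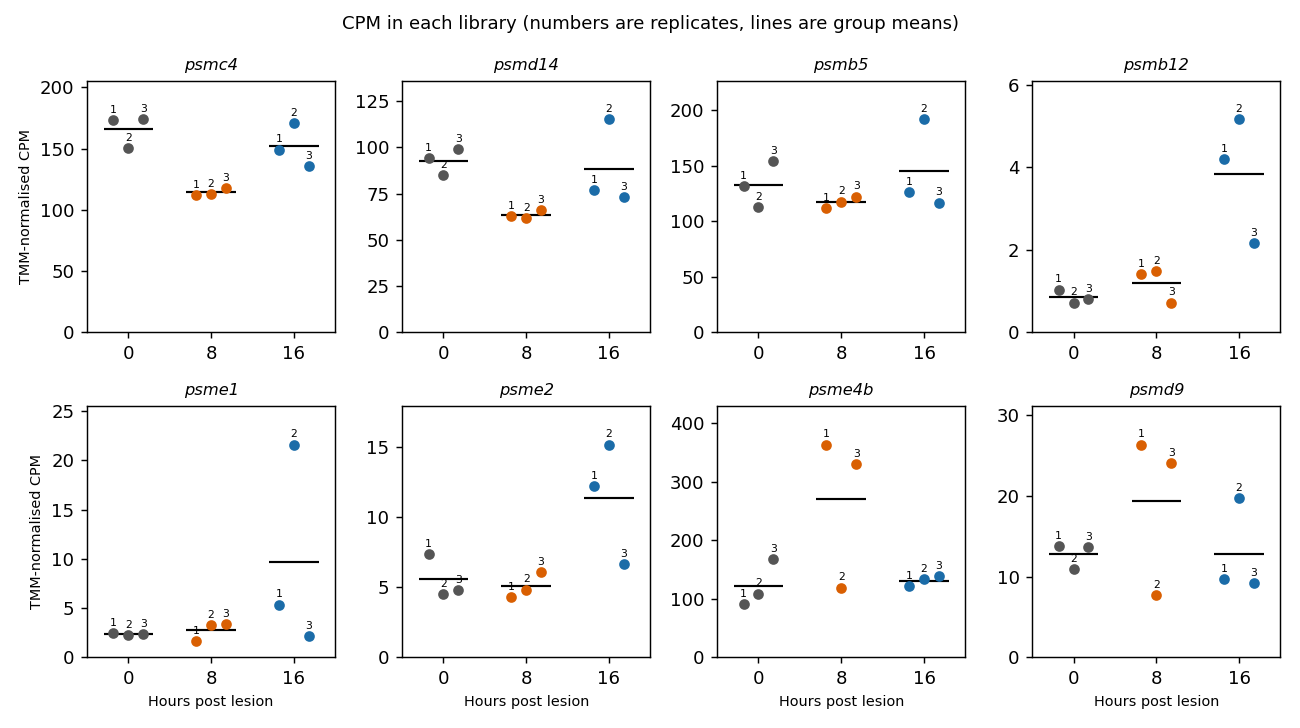
CPM of 8 genes in each library, with replicate numbers beside the points and lines for group means, on axes that start at 0. psmc4 and psmd14 are lowest in all 3 libraries at 8 hpl, psmb12 is highest in all 3 at 16 hpl, and psme1, psme4b and psmd9 are spread widely within a group.

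The inhibitor gene psmf1 was the steadiest regulator. It stood at 22.6, 21.4 and 23.8 CPM at 0 hpl, 21.0, 21.9 and 25.9 CPM at 8 hpl and 21.7, 21.6 and 18.7 CPM at 16 hpl. The groups overlapped at both times.

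The assembly chaperones had a median log2 fold change of −0.07 at 8 hpl against 0 hpl, with 3 of 5 lower, and of 0.23 at 16 hpl against 0 hpl, with 4 of 5 higher, and 0 of 5 were called. psmg1, which with psmg2 guides the alpha ring, stood at 24.7, 24.3 and 24.1 CPM at 0 hpl, 21.0, 20.4 and 26.8 CPM at 8 hpl and 25.2, 47.5 and 29.9 CPM at 16 hpl. Every 16 hpl library exceeded every unlesioned one, replicate 1 by little, with a log2 fold change of 0.49 ± 0.24 (edgeR adjusted p = 0.388) that was 0.17 without replicate 2. psmd5, a chaperone of the regulatory base, stood at 25.3, 26.0 and 25.9 CPM, then 22.3, 25.2 and 26.0 CPM, then 22.1, 26.7 and 18.4 CPM. Its groups overlapped.

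The base chaperone psmd9 had the split of psme4b at 8 hpl, but at 16 hpl, unlike psme4b, its replicate 2 stood well above the others. It stood at 13.8, 10.9 and 13.6 CPM at 0 hpl, 26.4, 7.76 and 24 CPM at 8 hpl and 9.69, 19.7 and 9.21 CPM at 16 hpl. The 3 libraries that stand apart were its highest. Its log2 fold change at 8 hpl was 0.60 ± 0.44 (edgeR adjusted p = 0.577) and turned to −0.72 without those libraries. psmd10, the chaperone also known as gankyrin, stood at 16.4, 10.8 and 15.8 CPM, then 10.6, 7.52 and 12.3 CPM, then 16.1, 28.0 and 9.93 CPM. All groups overlapped, with −0.49 ± 0.36 at 8 hpl against 0 hpl (adjusted p = 0.578), or −0.93 without the 3 libraries that stand apart, and 0.83 ± 0.36 at 16 hpl against 8 hpl (adjusted p = 0.351), the latter 0.37 without 16 hpl replicate 2.

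psmc3ip, the gene that encodes no proteasome subunit, stood at 0.573, 0.357 and 0.856 CPM at 0 hpl, 1.48, 1.29 and 1.75 CPM at 8 hpl and 1.34, 1.09 and 1.28 CPM at 16 hpl. All 6 lesioned libraries exceeded the 3 unlesioned ones. Its log2 fold change was 1.33 ± 0.48 at 8 hpl (edgeR adjusted p = 0.196) and 1.05 ± 0.48 at 16 hpl (adjusted p = 0.35).

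Between 8 and 16 hpl the subunits were higher at the later time, again without a gene passing the test. Of the 31 subunits 30 were higher, with a median log2 fold change of 0.32, and over the 44 genes 37 were higher with a median of 0.31, against 0.01 over all genes tested. In edgeR 0 of 44 passed in either direction, where 0.0604% of all genes passed as higher and 0.0403% as lower. At an unadjusted p below 0.05, 10 were higher and 1 lower, beside 6.64% and 7% of all genes. In DESeq2, 2 of 44 were called, psmb12 and psme2, beside 3.52% of all genes.

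Every 16 hpl library exceeded every 8 hpl one for 12 of 44 genes, beside 8.49% of all genes. The 12 were 2 beta ring genes (psmb1 and psmb7), psmb12, 3 ATPases (psmc2, psmc3 and psmc4), 5 other regulatory subunits (psmd1, psmd3, psmd11a, psmd11b and psmd14) and psme2. The median depended on 16 hpl replicate 2, without which it was 0.12 over the 44 genes, and the count was 29 without replicate 3, when 14.1% of all genes separated in this way. This comparison shares the 8 hpl libraries with that of 8 hpl against 0 hpl, so a low 8 hpl level enters both.

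Genes that work with the proteasome were followed as a list of 26 tested genes for ubiquitin, shuttle factors, core maturation and transcription. In edgeR 4 of the 26 rose at 8 hpl and 0 fell, beside 1.9% and 0.931% of all genes. At 16 hpl 1 rose and 0 fell, beside 1.45% and 0.639% of all genes. The median log2 fold changes of the list were −0.12 and 0.11. nfe2l1a, whose mammalian counterpart activates proteasome genes when proteasomes are inhibited, stood at 1.2, 1.21 and 1.76 CPM at 0 hpl, 4.02, 3.98 and 5.95 CPM at 8 hpl and 7.27, 9.28 and 3.84 CPM at 16 hpl. It was higher in all 6 lesioned libraries than in any unlesioned one, and rose by 1.74 (adjusted p = 0.0432) and 2.29 (adjusted p = 0.0169) on the log2 scale. nfe2l2a and nfe2l2b, for regulators of the oxidative stress response, rose at 8 hpl by 1.88 (adjusted p = 0.0129) and 2.40 (adjusted p = 0.0311), and the polyubiquitin gene ubb (ENSDARG00000093313) by 1.30 (adjusted p = 0.0486). The core maturation factor gene pomp had −0.10 at 8 hpl (adjusted p = 0.884).

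Genes of MHC class I presentation, which receives proteasome products, were not called: 0 of 17 passed in either direction at 8 or 16 hpl in edgeR. Of all genes, 1.9% and 1.45% passed as higher and 0.931% and 0.639% as lower. The medians of the list against 0 hpl were −0.08 and 0.80. Among them b2m, the light chain of class I, stood at 18.1, 16.0 and 12.1 CPM at 0 hpl and 34.5, 94.3 and 31.3 CPM at 16 hpl (1.79, adjusted p = 0.0541).

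Markers of immune cells are set beside psmb12, psme1 and psme2. The microglia and macrophage list summed to 139 to 181 CPM at 0 hpl, 170 to 179 CPM at 8 hpl and 183 to 241 CPM at 16 hpl, most of it aif1l (107 to 205 CPM). Of its 13 tested genes 0 were called, with median log2 fold changes against 0 hpl of 0.15 at 8 hpl and 0.56 at 16 hpl. Most of the 27 genes in this list are not given singly. Of those that are, c1qa and c1qb were at 0 to 0.474 CPM and the mpeg1 gene with most counts at 0.114 to 2.42 CPM. The 8 lymphocyte markers summed to 3.92 to 7.90 CPM over the 9 libraries. Only 2 of them had enough counts to be tested, with 0 called against 0 hpl, and 1, cd8a, was at 0 in all 9 libraries. The 4 neutrophil markers summed to 2.23 to 3.61 CPM at 0 hpl, 5.07 to 10.4 CPM at 8 hpl and 22.5 to 299 CPM at 16 hpl. In edgeR 2 of them rose at 16 hpl, mmp9 and lyz, beside 1.45% of all genes. In replicate 2 mmp9 alone made up 294 of the 299 CPM, so the sum there is nearly all mmp9 and not a level shared by the list. Which cells the mmp9 RNA came from was not tested. The part of immune cell RNA in psmb12, psme1 and psme2 was not tested.

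Of 22 tested genes of selective autophagy, the other main route of protein disposal, 1 rose at 8 hpl (ulk1b, 1.14, adjusted p = 0.0366) and 1 at 16 hpl (bag3, 0.94, adjusted p = 0.0260) in edgeR, and 0 fell. Of all genes, 1.9% and 1.45% rose at these times. The median log2 fold changes were 0.03 and 0.06.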

How the data were processed

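RNA of sorted Müller glia was sequenced in 9 libraries, stranded and read from a single end, per the labels' protocols. The authors deposited expected counts per Ensembl gene without normalization, a table of FPKM called normalized by its name, and a table of log2 fold changes with adjusted p-values at 8 and 16 hpl. Per the submitters' processing notes, the tools named are RSEM 1.2.22, Bowtie2 2.2.6, limma 3.24.15 and edgeR 3.10.2, and the build is Zv9, with no role stated. RSEM can divide reads between similar genes, and 11 of the 44 genes had fractional counts in a library (tolerance 0.005).

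Expected counts were rounded and fitted with edgeR 4.0.16 in R 4.3.3 (filterByExpr by group, TMM factors, robust quasi-likelihood F test, two-sided, 6 residual degrees of freedom), with p-values adjusted by Benjamini and Hochberg's method over the 19875 genes tested and called below 0.05. Errors of fold changes are their size divided by the square root of F. Group values are means with SD. Alternatives were RLE factors, no filter, DESeq2 1.42.0, limma 3.58.1 on log2(FPKM + 1), a replicate block, each library left out, the 3 libraries that stand apart left out, and, chosen after seeing the data, library size alone. The fit was tested on simulated data.

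The genes, roles and lists were chosen with earlier results of these data known, among them a lower median of proteasome genes at 8 hpl. Values in every library are given for genes past the threshold, catalytic and immune-type beta genes, activators, psmf1 and, in each role, the highest and lowest fold change at 8 and 16 hpl against 0 hpl. The other genes with values, among them psmd1, psme4b's paralog and the genes outside the proteasome, were chosen after their values were seen. Sequences and genome positions are not given, and promoter motifs were not analysed here. The result of 1 further gene list is not reported here.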

Additional observations from a re-analysis of the deposited data

How the results depend on the processing

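Counts of called genes depended on the tool and the libraries. The numbers called were 2, 2 and 2 in DESeq2 at 8 hpl against 0 hpl, 16 hpl against 0 hpl and 16 hpl against 8 hpl, and 4 over the 3 time points. Of all genes, DESeq2 called 7.18%, 5.61%, 3.52% and 9.95% in the same order. In limma on log2(FPKM + 1) 0 were called at 16 hpl against 0 hpl and 0 over the 3 time points, beside 1.65% and 2.1% of all genes. Under the replicate block these 2 counts were also 0, beside 0.845% and 0.921% of all genes, and psmb12 had 2.09 at 16 hpl (adjusted p = 0.0886). Same-numbered libraries correlated at −0.502 to 0.173 in their deviations from group means, and differently numbered ones at −0.302 to 0.424. These values show no pairing by number, but the libraries that stand apart could hide one. With a library left out, 0 to 2 genes were called at 8 hpl against 0 hpl, 0 to 1 at 16 hpl against 0 hpl, 0 to 1 at 16 hpl against 8 hpl and 0 to 3 over the 3 time points. Without the 3 libraries that stand apart 0 were called over the 3 time points.

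Genes lower in every 8 hpl library than in any unlesioned one numbered 20 to 28 with a library left out, and 35 when the 3 libraries that stand apart were dropped. Of all genes, 12.5 to 25% and 32.7% then separated in this way. Genes higher in every 16 hpl than 8 hpl library numbered 11 to 29 with a library left out, 29 when those 3 were dropped and 20 with library size alone. Of all genes, 8.2 to 16.2%, 34.4% and 9.73% did so. Median fold changes over the 44 genes moved by less than 0.193 under every alternative run. That value is the SD of the genes' median level between libraries of a group, and it is not an error of a fold change. The median at 16 hpl against 8 hpl went from 0.31 to 0.12 without 16 hpl replicate 2. Library size alone put the median of all genes at 0.10 at 16 hpl against 0 hpl. Without the 3 libraries that stand apart the fold changes of psmd9 (−0.72) and psme4b (−0.047) at 8 hpl, psme3 at 16 hpl (−0.012) and psme4b at 16 against 8 hpl (0.13) turned their sign, as did psme3 without 16 hpl replicate 2 (−0.020; range to 0.52). The causes were not tested. psmb12 rests on 15 to 109 counts per library.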
